A study of Mus musculus with 8 samples.

Results

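Expression of 39 genes of fatty acid oxidation and of the peroxisome proliferator-activated receptors (PPARs) was followed in cultured mouse cardiac fibroblasts. The genes were taken by symbol from the 54532 genes of the deposited tables, and all 39 symbols were found. Of these genes, 35 passed the expression filter and were among the 14723 genes tested. Cells of the C57BL/6 strain, at passage 2, were transfected with a plasmid for HA-tagged mouse thrombospondin-4 (TSP-4, gene Thbs4, plasmid pAAV.CMV.SV40.THBS4-HA) or with an empty plasmid (pAAV-CA). All cultures then spent 12 h in standard medium and 24 h without serum. Poly(A) RNA was sequenced from 4 libraries of each group, lettered A to D in both. The constructs differ in more than Thbs4, so every comparison is of one plasmid with the other; the CMV promoter drives Thbs4. The labels do not say whether the libraries came from separate cultures or animals, so the p-values rest on the spread of these 8 libraries alone, which may be technical. They also do not say what the letters mark.

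Total counts were 17123735 to 22530947 per library. Thbs4 had 25754 to 38063 counts with the TSP-4 plasmid, against 2 to 11 counts with the empty plasmid. The 12 cardiac fibroblast markers summed to 14006 to 18756 CPM (counts scaled to a common library size) with the TSP-4 plasmid, against 13648 to 19323 CPM with the empty plasmid, led by Col1a1, Vim and Col1a2. Of the adipocyte markers, Cfd and Pck1 had no count in any library, and Adipoq, Lep, Plin1 and Cidec stayed at or under 0.236 CPM. Of the cardiomyocyte markers, Myh6, Myh7 and Nppa stayed at or under 0.118 CPM, while Tnnt2 had 12.2 to 16.8 CPM with the TSP-4 plasmid, against 11.1 to 15.7 CPM with the empty plasmid. Tnnt2 made up most of the sum of the 14 cardiomyocyte markers, which was 14.05 to 18.4 CPM with the TSP-4 plasmid, against 12.8 to 17.9 CPM with the empty plasmid. In bulk RNA, fewer cells of a type and less RNA per cell cannot be told apart.

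Long-chain fatty acids are activated by acyl-CoA synthetases, carried into mitochondria as carnitine esters and shortened there by repeated cycles of dehydrogenation, hydration, dehydrogenation and thiolysis. Electrons from the first step pass through the electron transfer flavoprotein to the respiratory chain. PPARs are nuclear receptors that sit on DNA with retinoid X receptors and are activated by fatty acids or their derivatives, and many genes of fatty acid handling are their targets. Heart muscle relies on this pathway for energy, and fibroblasts use it less.

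The element that PPARs bind is a direct repeat of AGGTCA with 1 base between the copies, called DR1. RefSeq promoter windows (GRCm38.p6, 250 bases before the gene start to 50 after it) were found for 33 of the 39 genes, as 36 windows. The letters AGGTCANAGGTCA, on either strand and with up to 2 mismatches, occurred in 4 of these 36 windows and in 3.86% of 32851 windows of the whole table. The windows were those of Plin2, Echs1, Etfa and Slc25a20. Matches are shown in capitals, with the whole window printed for Plin2 and Echs1. Between the plasmids these 2 genes went in opposite directions, with log2 fold changes of -0.12 and 0.18, and neither was called. Pdk4, Eci2 and Acaa1a, also described below, had windows without a match. A match is a description and not a site, and no link between matches and values was tested. The first window is at chr4:86670010-86670309, minus strand, and the second at chr7:140116372-140116671, minus strand.
Plin2: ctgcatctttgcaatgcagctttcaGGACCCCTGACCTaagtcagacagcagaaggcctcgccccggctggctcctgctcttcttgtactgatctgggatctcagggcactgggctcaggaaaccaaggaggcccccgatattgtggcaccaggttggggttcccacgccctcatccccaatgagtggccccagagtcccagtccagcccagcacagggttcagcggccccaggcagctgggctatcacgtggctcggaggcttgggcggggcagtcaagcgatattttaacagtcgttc
Echs1: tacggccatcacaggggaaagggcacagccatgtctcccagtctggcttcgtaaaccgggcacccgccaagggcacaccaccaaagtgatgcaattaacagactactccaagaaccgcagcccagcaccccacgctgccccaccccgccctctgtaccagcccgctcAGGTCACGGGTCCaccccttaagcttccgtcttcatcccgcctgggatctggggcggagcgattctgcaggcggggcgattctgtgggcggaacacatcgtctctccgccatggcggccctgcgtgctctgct

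The matches of the other two genes are given with 12 flanking bases on each side.
Etfa: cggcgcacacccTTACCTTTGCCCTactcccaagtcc
Slc25a20: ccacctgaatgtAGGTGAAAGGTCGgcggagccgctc
The match began 225 bases before the start of Plin2, 83 bases before that of Echs1 and 77 bases before that of Etfa, and 6 bases after that of Slc25a20. It read along the gene's strand in Echs1 and Slc25a20 and on the opposite strand in Plin2 and Etfa, and each match had 2 mismatches. The site of the oestrogen-related receptors, searched as TNAAGGTCA without mismatch on either strand, occurred in 0 of the 36 windows and in 1.28% of the whole table. No window was at hand for Acaa2, Angptl4, Cpt1b, Decr1, Fabp4 and Ppargc1b.

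Levels are compared between genes only in the authors' FPKM (fragments scaled by gene length and library size), as means of the 8 libraries. The order was led by Plin2 at 61.0 FPKM, which coats lipid droplets, and Angptl4 at 61.0 FPKM, a secreted inhibitor of lipoprotein lipase. They were followed by Cpt1a (40.6 FPKM), Etfa (40.4 FPKM), Acadl (29.3 FPKM) and Acadvl (27.7 FPKM). Plin2 ranged over 45.2 to 72.1 FPKM and Angptl4 over 15.9 to 89.9 FPKM, so this neighbouring pair did not differ beyond the spread between libraries. Cpt1a (36.5 to 45.6 FPKM) and Etfa (38.95 to 42.7 FPKM) overlapped as well. At the low end stood Acot1 (0.15 FPKM), Ppargc1b (0.14 FPKM), Ppara (0.0702 FPKM), Cpt1b (0.0417 FPKM) and Ppargc1a (0.0214 FPKM), and the range of each of these 5 genes overlapped that of the next in this order.

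**Figure D1:**
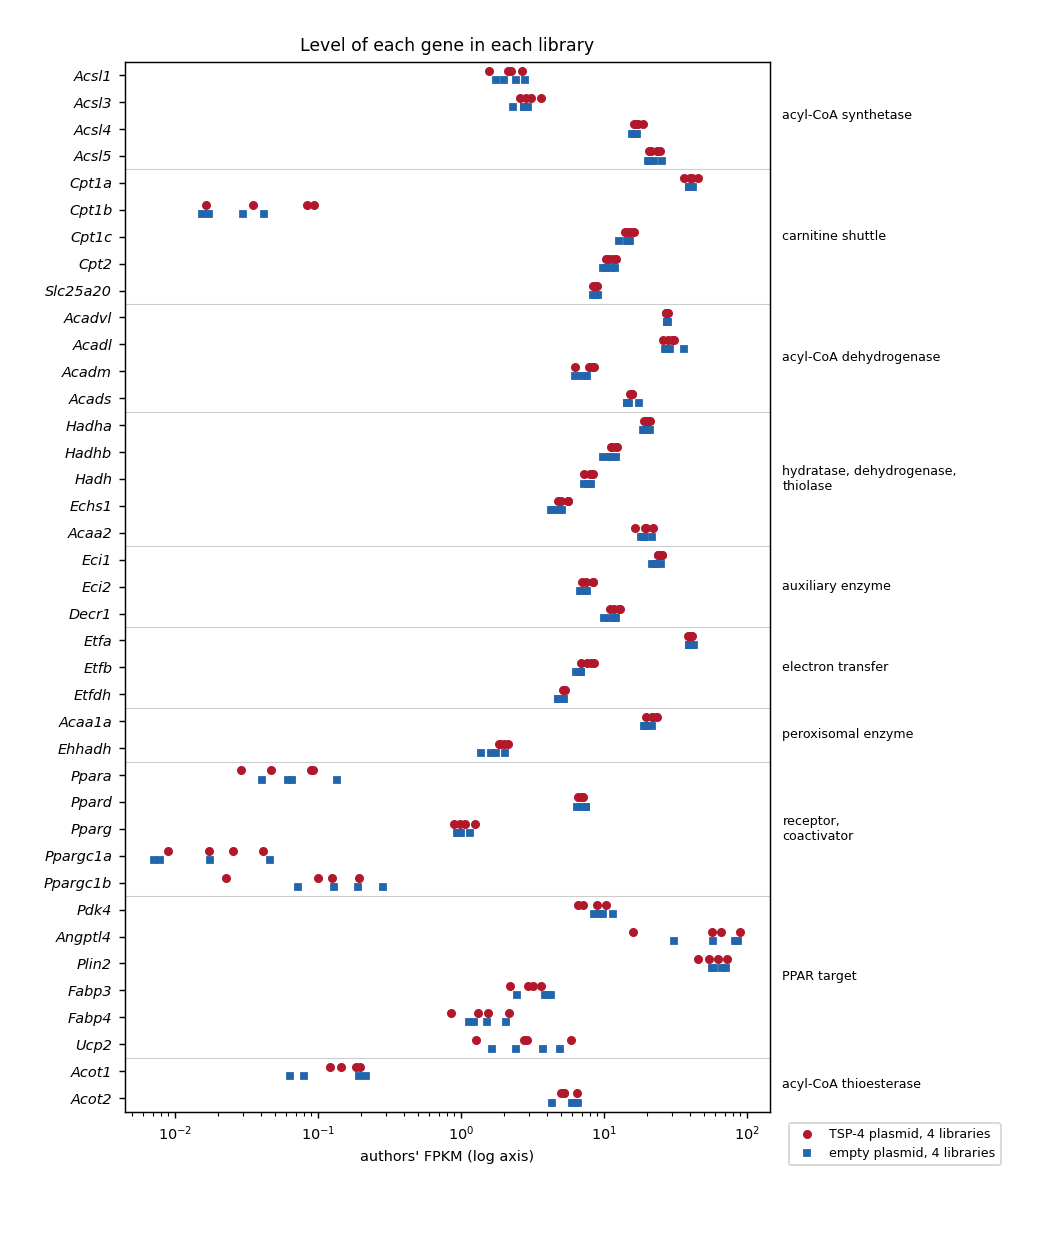
Authors' FPKM (log axis) of the 39 genes in each of the 8 libraries, ordered by role; circles are TSP-4 plasmid libraries and squares below them empty plasmid libraries. Plin2 and Angptl4 reach 72.1 and 89.9 FPKM, while Cpt1b, Ppara, Ppargc1a and Ppargc1b lie at or under 0.286 FPKM, and the symbols of the groups overlap in every row but that of Etfb.

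The authors' gene length is the union of all annotated exons for 35 of the 39 genes, which lowers FPKM where long isoforms are annotated. For 12 of the 39 genes the principal GENCODE M21 transcript was shorter than 50% of that length. These levels were also scaled to the length of the principal transcript. The counts were kept as deposited, so reads outside that transcript were not taken out. On that length the level of Echs1 went to 26.3 in place of 4.94 FPKM. Its rank among the 39 went to 11 in place of 27. Fabp4 went to 7.41 in place of 1.48 FPKM, and Acaa1a to rank 4 in place of 9. Plin2 and Angptl4 kept ranks 1 and 2, and the 5 lowest genes kept their ranks.

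The muscle form had few counts in the Cpt1 family, and 81.4% of its exon length (2744 bases) lies in the protein-coding gene Gm44502 on the same strand, which had 0 counts, so the level and share of Cpt1b are uncertain. Cpt1a, the liver-type carnitine palmitoyltransferase of the outer mitochondrial membrane, made up 72.8 ± 2.45% of the summed Cpt1 FPKM with the TSP-4 plasmid, against 73.8 ± 1.72% with the empty plasmid (± SD over the 4 libraries of each group, here and below). Cpt1c, the brain-type enzyme, made up 27.1 ± 2.41% with the TSP-4 plasmid, against 26.2 ± 1.73% with the empty plasmid. Cpt1b, the muscle form, made up 0.102 ± 0.0673% with the TSP-4 plasmid, against 0.0471 ± 0.0209% with the empty plasmid. With the principal transcript as length Cpt1a still led, at 57.1 ± 2.97% with the TSP-4 plasmid, against 58.3 ± 2.2% with the empty plasmid.

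Among the receptors Ppard led, with 86.1 ± 1.59% of the summed PPAR FPKM with the TSP-4 plasmid, against 86.6 ± 1.47% with the empty plasmid. Pparg took 13.1 ± 1.89% with the TSP-4 plasmid, against 12.4 ± 1.33% with the empty plasmid. Ppara, the form known for the fasted liver and the heart, took 0.379 to 1.13% with the TSP-4 plasmid, against 0.493 to 1.82% with the empty plasmid. Among the synthetases Acsl5 took 49.999 ± 2.52% with the TSP-4 plasmid, against 50.9 ± 2.38% with the empty plasmid. Acsl4, which prefers arachidonic acid, took 38.5 ± 2.36% with the TSP-4 plasmid, against 37.8 ± 2.57% with the empty plasmid. Acsl1, the main form of heart and fat, took 4.78 ± 0.966% with the TSP-4 plasmid, against 5.14 ± 0.868% with the empty plasmid. For the pair of Fabp3 and Fabp4 the order turned with the length used. By the authors' length Fabp3 took 67.0 ± 11.1% with the TSP-4 plasmid, against 70.7 ± 7.82% with the empty plasmid, and by the principal transcript 30.5 ± 11.6% with the TSP-4 plasmid, against 33.5 ± 8.3% with the empty plasmid. The length does not enter the comparisons between libraries that follow.

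No member passed the test between the plasmids, higher or lower, by edgeR's quasi-likelihood test with Benjamini-Hochberg adjustment over all genes (smallest adjusted p = 0.999968, threshold 0.05). Over all genes that test called 1 of 14723 (0.00679%), which was Thbs4. At an unadjusted p under 0.05 edgeR gave 0 of 35 members, where it gave 1.6% of all genes. DESeq2, limma voom and limma on log2 FPKM also called 0 members in either direction. For 29 of the 35 members the 95% interval stayed inside a 1.5-fold change in either direction, and for 32 inside a 2-fold change. The median log2 fold change of the members was 0.01, with 21 of 35 above 0, where the median of all genes was -0.00 and 49.9% were above 0.

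The libraries pair by letter, so the test was also run with the letter as a replicate block. It called 0 members and 0.0136% of all genes, and the smallest adjusted p of a member was 0.339 (edgeR), that of Pdk4. At an unadjusted p under 0.05 with the block, edgeR put 3 of 35 members (8.57%) higher, against 4.14% of all genes, namely Echs1, Eci2 and Acaa1a. It put 2 of 35 (5.71%) lower, against 3.98% of all genes, namely Pdk4 and Plin2. With the block the 95% intervals were 0.07 to 0.28 for Echs1, 0.01 to 0.23 for Eci2 and 0.01 to 0.20 for Acaa1a. For Pdk4 the interval was -0.40 to -0.14 and for Plin2 -0.27 to -0.01. These 5 intervals exclude 0 but are not adjusted for the number of genes. Other intervals of single genes are from the model with the plasmid alone, unless stated to be with the block. These 5 genes were picked by their p, and the shares were not tested against the background.

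**Figure D2:**
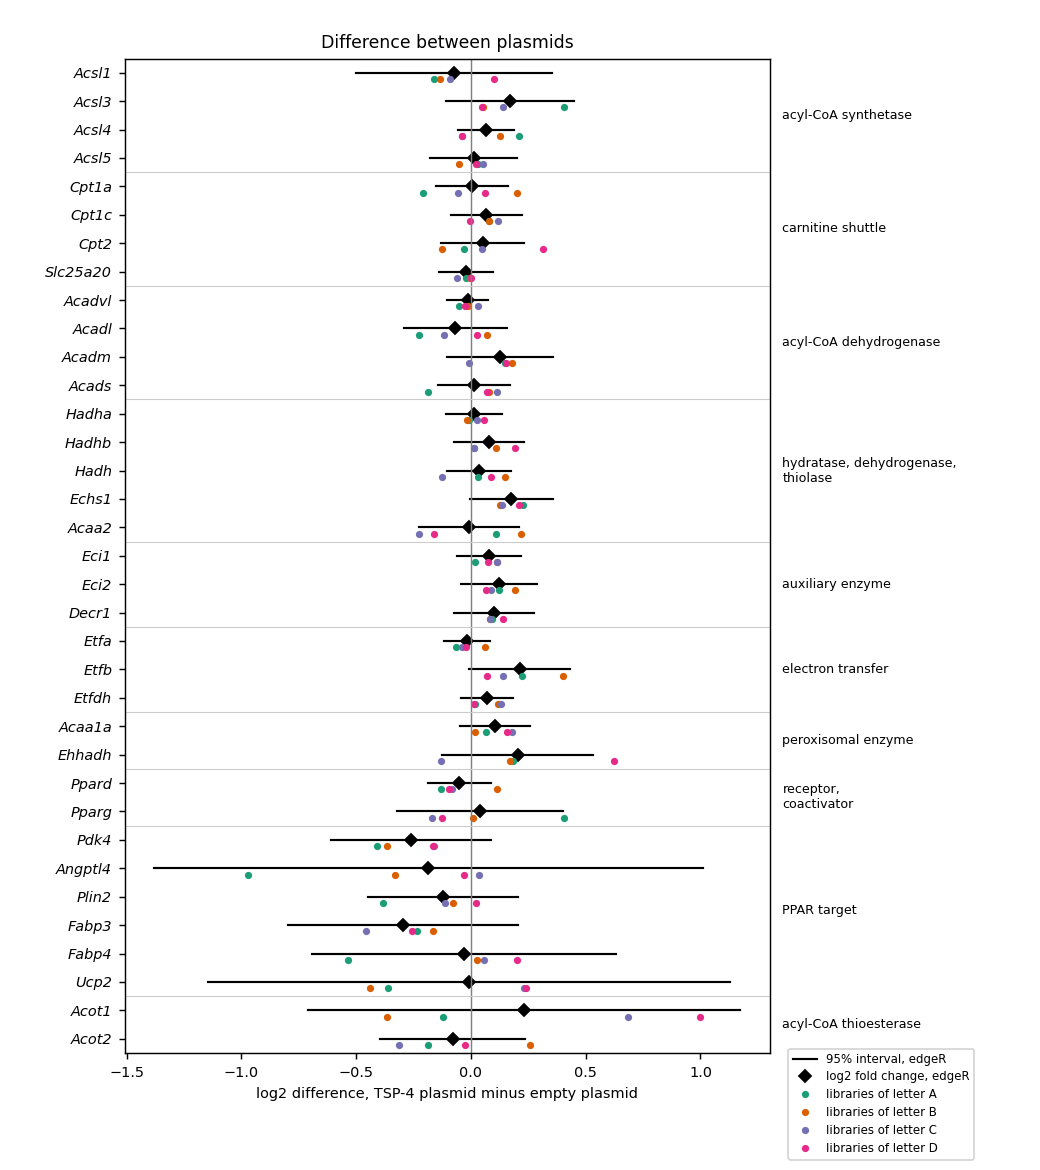
Log2 difference, TSP-4 plasmid minus empty plasmid, of the 35 genes tested; diamonds and bars are edgeR's log2 fold change and 95% interval, small dots the difference within each letter. The intervals are from the model with the plasmid alone. Every interval drawn reaches 0, and Angptl4, Ucp2 and Acot1 have intervals reaching past 1 on the log2 scale.

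The enzymes of activation came first in the pathway and gave no call. The 4 synthetases had log2 fold changes of -0.07 to 0.17. Acsl3, which acts at the endoplasmic reticulum and lipid droplets, had 15.9, 13.5, 11.2 and 12.4 CPM in TSP-4 plasmid libraries A to D, against 12.0, 12.96, 10.2 and 12.0 CPM in empty plasmid libraries A to D. The TSP-4 plasmid library was above its partner in 4 of 4 letters, but the groups overlapped and the log2 fold change of 0.17 had a 95% interval of -0.11 to 0.45. Of the 35 members tested, 9 were above 0 in 4 of 4 letters and 3 below. The share over all genes was not counted, so this order has no background, here and below. In the carnitine shuttle, Cpt1a had 157, 197, 172 and 177 CPM with the TSP-4 plasmid, against 181, 171, 179 and 170 CPM with the empty plasmid. Its log2 fold change was 0.00 (95% interval -0.15 to 0.16), which lies inside 1.5-fold in either direction. Cpt2, which makes acyl-CoA again on the inner membrane, and the carnitine carrier Slc25a20 had log2 fold changes of 0.05 and -0.02.

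Cpt1b had 7, 5, 2 and 1 counts with the TSP-4 plasmid, against 3, 1, 2 and 1 counts with the empty plasmid, and these are uncertain because of the overlap with Gm44502. It was too low for a test, as were Ppara, Ppargc1a and Ppargc1b, the last-named pair being coactivators of mitochondrial genes. These 4 genes had 1 to 22 counts per library.

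Of the acyl-CoA dehydrogenases, which take the first step of the cycle at different chain lengths, Acadvl was the steadiest member. It had 72.9, 74.9, 76.1 and 73.7 CPM with the TSP-4 plasmid, against 75.6, 75.5, 74.5 and 74.9 CPM with the empty plasmid, with a log2 fold change of -0.01 (95% interval -0.10 to 0.07). The exons of Acadvl share 1151 bases (42.9% of its length) with Dvl2 on the other strand, and whether the counts used strand is not given in the sources used here, so its level is uncertain. Acadl, Acadm and Acads had log2 fold changes of -0.07, 0.13 and 0.01.

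Echs1 encodes the short-chain enoyl-CoA hydratase of the second step (chromosome 7, 140105710 to 140116476, minus strand, as deposited). It had 46.7, 46.5, 39.5 and 41.7 CPM in TSP-4 plasmid libraries A to D, against 39.9, 42.6, 36.0 and 36.0 CPM in empty plasmid libraries A to D. The TSP-4 plasmid library was the higher one in 4 of 4 letters, and the groups overlapped, with letters A and B high in both. The log2 fold change was 0.18 (95% interval -0.01 to 0.36, edgeR adjusted p = 0.999968), and with the block the adjusted p was 0.419 by edgeR. Its promoter window is the second of those printed above.

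The trifunctional protein, which carries the hydratase, dehydrogenase and thiolase steps for long chains, is made of the products of Hadha and Hadhb. These genes lie head to head, with RefSeq window starts 273 bases apart. As deposited the genes lie closer, with Hadha (minus strand) reaching 30155162 and Hadhb (plus strand) beginning at 30155248. Their windows share the 228 bases at chr5:30155003-30155230 (GRCm38.p6, RefSeq), part of which lies inside the deposited Hadha gene. The stretch is shown on the plus strand because both windows hold it.
Hadha and Hadhb: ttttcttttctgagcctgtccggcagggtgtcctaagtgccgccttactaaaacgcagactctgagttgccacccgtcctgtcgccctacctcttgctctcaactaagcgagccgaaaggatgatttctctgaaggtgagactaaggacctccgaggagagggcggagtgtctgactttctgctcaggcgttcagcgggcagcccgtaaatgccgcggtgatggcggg
Hadha had 174, 184, 168 and 175 CPM with the TSP-4 plasmid, against 175, 186, 165 and 168 CPM with the empty plasmid, a log2 fold change of 0.01 (95% interval -0.11 to 0.14). Hadhb had 80.8, 80.8, 74.3 and 75.0 CPM with the TSP-4 plasmid, against 80.1, 75.0, 73.7 and 65.6 CPM with the empty plasmid, a log2 fold change of 0.08 (95% interval -0.07 to 0.23). Both genes stayed in a narrow range over all 8 libraries, and the groups overlapped.

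The auxiliary enzymes for unsaturated fatty acids, Eci1, Eci2 and Decr1, were above 0 in 4 of 4 letters each, with log2 fold changes of 0.08, 0.12 and 0.10. Eci2 had 46.1, 47.1, 41.3 and 39.3 CPM with the TSP-4 plasmid, against 42.3, 41.2, 38.8 and 37.6 CPM with the empty plasmid, and the groups overlapped. None of the 3 passed the test.

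Electron transfer held the one member whose groups did not overlap. Etfb, the beta subunit of the electron transfer flavoprotein, had 9.43, 9.98, 8.92 and 8.15 CPM with the TSP-4 plasmid, against 8.08, 7.54, 8.10 and 7.77 CPM with the empty plasmid. Every TSP-4 plasmid library lay above every empty plasmid library, though 8.15 and 8.10 CPM lay side by side. Its exons share 53.01% of their length with the annotated gene Gm45233 on the same strand, so its level is uncertain. The log2 fold change was 0.21 (95% interval -0.01 to 0.43, edgeR adjusted p = 0.999968). No overlap with the TSP-4 plasmid higher occurred in 0.652% of all genes and in 1 of 35 members, and with it lower in 0.863% of all genes and in 0 members. Etfa, the partner subunit, had 74.5, 75.9, 71.6 and 74.1 CPM with the TSP-4 plasmid, against 78.1, 72.8, 73.5 and 75.1 CPM with the empty plasmid, a log2 fold change of -0.02 (95% interval -0.12 to 0.08).

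Of the peroxisomal enzymes, Acaa1a, a thiolase, had 87.4, 98.01, 103 and 95.5 CPM with the TSP-4 plasmid, against 83.6, 96.8, 91.3 and 85.7 CPM with the empty plasmid. It was higher in 4 of 4 letters with overlapping groups, and the log2 fold change was 0.11 (95% interval -0.05 to 0.26; with the block, edgeR adjusted p = 0.554). Ehhadh, the peroxisomal bifunctional enzyme, was at 4.12 to 6.41 CPM in the 8 libraries with a log2 fold change of 0.20 (95% interval -0.13 to 0.53). Over all steps from the carnitine shuttle to electron transfer and peroxisomes, 16 of 21 tested genes had a log2 fold change above 0. Their median was 0.07, and of all genes 49.9% were above 0. None of the 21 was called, and their direction as a group was not tested.

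Of the receptors, Ppard had 51.6, 52.9, 53.8 and 49.8 CPM with the TSP-4 plasmid, against 56.4, 48.9, 57.1 and 53.1 CPM with the empty plasmid, a log2 fold change of -0.05 (95% interval -0.19 to 0.09). Pparg had 3.70, 2.91, 2.66 and 3.15 CPM with the TSP-4 plasmid, against 2.77, 2.89, 3.01 and 3.44 CPM with the empty plasmid, a log2 fold change of 0.04 (95% interval -0.32 to 0.40). For both the groups overlapped and the higher group changed from letter to letter.

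The 6 genes labelled here as PPAR targets were Pdk4, Angptl4, Plin2, Fabp3, Fabp4 and Ucp2. All had a log2 fold change under 0, from -0.30 to -0.01 with a median of -0.15, and none passed the test. The label does not cover all targets, since genes of the other roles can be targets too, so the 6 do not stand for PPAR targets as a class. The median depended on 1 library: without TSP-4 plasmid library A it was 0.06. Pdk4 encodes a kinase that shuts off pyruvate dehydrogenase and so spares glucose when fat is burned (chromosome 6, 5483351 to 5496309, minus strand, as deposited). It had 24.9, 23.3, 31.4 and 36.6 CPM in TSP-4 plasmid libraries A to D, against 33.1, 30.1, 35.2 and 41.0 CPM in empty plasmid libraries A to D. The TSP-4 plasmid library was the lower one in 4 of 4 letters, and the groups overlapped, with letters C and D high in both. The log2 fold change was -0.26 (95% interval -0.61 to 0.09, edgeR adjusted p = 0.999968), and with the block it was -0.27 (adjusted p = 0.339 by edgeR). Leaving out 1 library at a time kept the log2 fold change of Pdk4 between -0.39 and -0.17.

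Plin2 (chromosome 4, 86648386 to 86670060, minus strand, as deposited) had 158, 191, 221 and 255 CPM in TSP-4 plasmid libraries A to D, against 207, 201, 239 and 251 CPM in empty plasmid libraries A to D. It was lower in 3 of 4 letters, and the groups overlapped over most of their range. The log2 fold change was -0.12 (95% interval -0.45 to 0.20; with the block, edgeR adjusted p = 0.578). Fabp3, the heart-type fatty acid carrier, had 2.98, 1.83, 2.42 and 2.64 CPM with the TSP-4 plasmid, against 3.52, 2.06, 3.36 and 3.18 CPM with the empty plasmid. It was lower in 4 of 4 letters, with a log2 fold change of -0.30 (95% interval -0.80 to 0.20). Its exons overlap those of Zcchc17 on the other strand by 9.84% of its length, and Zcchc17 had 5152 counts in all.

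Angptl4 had 52.0, 219, 296 and 188 CPM in TSP-4 plasmid libraries A to D, against 102, 275, 289 and 192 CPM in empty plasmid libraries A to D. Both libraries of letter A were far below the others, and within letters B to D the groups lay close. The log2 fold change was -0.19 with a 95% interval of -1.38 to 1.01, so the interval held a 2-fold change in either direction. With the block the interval was -0.95 to 0.34, which held no 2-fold change. Without 1 library it ranged over -0.48 to 0.13. The thioesterases Acot1 and Acot2, which split acyl-CoA, are close copies of each other, so their counts are uncertain; their log2 fold changes were 0.23 (95% interval -0.71 to 1.17) and -0.08 (95% interval -0.39 to 0.24).

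The members were also compared between letters. In 31 of the 35, the range of the 4 letter means was larger than the plasmid difference with the block. A range over 4 means of 2 libraries is wider by construction than a difference between 2 means of 4. That count therefore cannot say whether the members differed more between letters than between plasmids. edgeR's test of the letters, in a model that also held the plasmid, called 11 of 35 members (31.4%) at an adjusted p under 0.05, and 28.1% of all genes, so the members' share was near the background. The 11 were Acsl1, Acsl5, Cpt1c, Acadl, Acadm, Echs1, Decr1, Pdk4, Plin2, Fabp4 and Ucp2. By role, it called 4 of the 6 genes labelled PPAR targets, 2 of 4 synthetases and 2 of 4 acyl-CoA dehydrogenases. It called 1 of 4 carnitine shuttle genes, 1 of 5 hydratase, dehydrogenase and thiolase genes and 1 of 3 auxiliary enzymes. In electron transfer it called 0 of 3, and of the peroxisomal genes, receptors and thioesterases 0 of 2 each. These counts are small, and no difference between roles was tested. The letter folds below are ratios of the highest to the lowest letter mean, taken from log2 CPM (prior count 2).

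**Figure D3:**
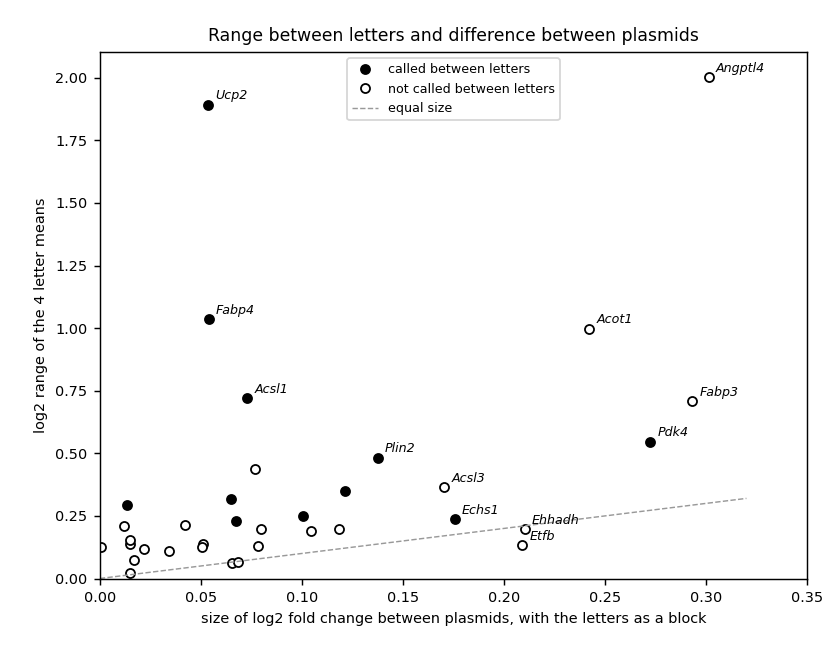
Log2 range of the 4 letter means against the size of the log2 fold change between plasmids with the letters as a block, 1 point per gene for the 35 genes tested; filled points were called between letters by edgeR, and the dashed line marks equal size. 31 of 35 points lie above the line, with Angptl4 and Ucp2 highest.

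Ucp2, a carrier of the inner mitochondrial membrane, varied most among the members called. It had 8.89, 19.5, 40.9 and 20.2 CPM in TSP-4 plasmid libraries A to D, against 11.5, 26.5, 34.8 and 17.1 CPM in empty plasmid libraries A to D. Letter C was highest and letter A lowest in both groups, a letter fold of 3.71 (edgeR adjusted p = 0.00126), while the log2 fold change between plasmids was -0.01 (95% interval -1.15 to 1.13, and -0.36 to 0.26 with the block). Fabp4, a fatty acid carrier of fat cells and macrophages, had 3.79, 7.02, 9.69 and 5.96 CPM with the TSP-4 plasmid, against 5.54, 6.89, 9.32 and 5.16 CPM with the empty plasmid. Its letter fold was 2.05, C over A (edgeR adjusted p = 0.0032). Acsl1 had 16.5, 23.4, 27.9 and 22.6 CPM with the TSP-4 plasmid, against 18.5, 25.8, 29.8 and 21.1 CPM with the empty plasmid, with a letter fold of 1.65, again C over A (edgeR adjusted p = 0.000314). Letter C was highest in both groups for all 3 genes, and letter A lowest except for Fabp4 with the empty plasmid, where D was lowest.

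Angptl4 had the widest letter fold, 4.01, C over A, but was not called by edgeR on all 8 libraries (adjusted p = 0.0702). On the same libraries DESeq2 (adjusted p = 8.24e-07), limma on log2(FPKM + 1) (adjusted p = 0.01002) and limma on log2(FPKM + 0.1) (adjusted p = 0.0138) called it. Its libraries of letter A, at 52.0 and 102 CPM, differed by a larger ratio than those of any other letter. It was called without TSP-4 plasmid library A (edgeR adjusted p = 8.00e-05) and without empty plasmid library A (edgeR adjusted p = 1.008e-05), and also without both (0.00379). It was not called by limma voom, with RLE factors, without the filter or with the letter as the single term. Nor was it called in the fits that left out a library, or both libraries, of letter B, C or D.

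Macrophage genes moved over the letters too. The 20 macrophage markers summed to 398, 966, 2162 and 964 CPM in TSP-4 plasmid libraries A to D, against 440, 1291, 1760 and 815 CPM in empty plasmid libraries A to D, with letter C highest and letter A lowest. They were led by Lyz2, with 174 to 1020 CPM, Ctss (30.3 to 160 CPM) and C1qb (17.9 to 118 CPM); Cd163 was at 0 in at least 1 library and reached 0.473 CPM. Of 19 tested markers edgeR called 17 between letters and 0 between plasmids. By letter mean Mertk was highest in C but lowest in B, and it was not called between letters (edgeR adjusted p = 0.0999). The sums of adipocyte markers were 20.2, 26.4, 31.4 and 23.9 CPM with the TSP-4 plasmid, against 19.3, 28.6, 29.0 and 23.1 CPM with the empty plasmid, mostly from Cebpa and Lipe. The part of macrophage RNA in the letter values of Ucp2, Fabp4, Acsl1 and Angptl4 was not tested.

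**Figure D4:**
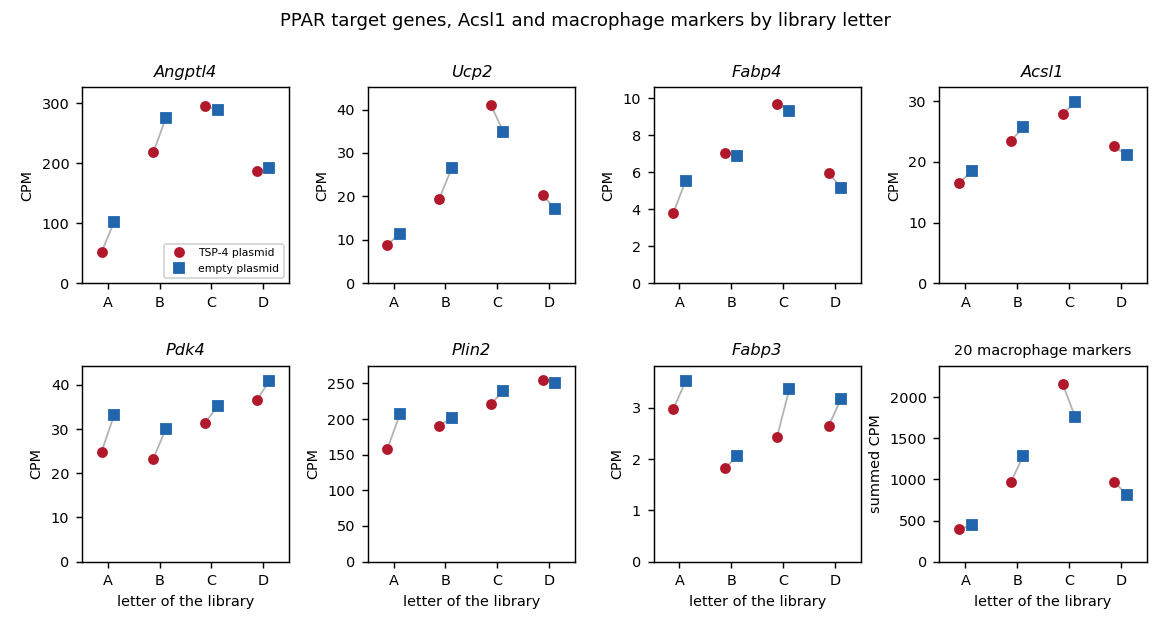
CPM of the PPAR targets and of Acsl1, and the summed CPM of 20 macrophage markers, by letter; circles are TSP-4 plasmid libraries and squares empty plasmid libraries, and a line joins the libraries of a letter. Ucp2, Acsl1 and the macrophage sum are highest in C and lowest in A in both groups, while Pdk4 is highest in D and has its circle below its square in every letter.

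Pdk4 and Plin2 had another order. Pdk4 was highest in letter D and lowest in B, with a letter fold of 1.46 (edgeR adjusted p = 0.00121), and Plin2 highest in D and lowest in A, with a letter fold of 1.40 (edgeR adjusted p = 0.00432). The sum of the 12 cardiac fibroblast markers was lowest in letter D, and edgeR called 9 of 12 between letters. In libraries A to D that sum was 18621, 18756, 17232 and 14006 CPM with the TSP-4 plasmid. With the empty plasmid it was 16605, 19323, 14992 and 13648 CPM. By letter mean, Gsn, Thy1 and Vim were lowest in C, Pdgfra and Dcn in A, and the other markers in D. The sum of the 9 epicardial and mesothelial markers was high in A and D and lowest in B, with 6 of 8 tested called between letters. In libraries A to D this second sum was 1112, 627, 678 and 951 CPM with the TSP-4 plasmid. With the empty plasmid it was 1104, 569, 647 and 916 CPM. By letter mean, Wt1 was highest in B and lowest in D, and Tbx18 highest in A and lowest in C. The sum of the 12 endothelial markers was also lowest in B, with 6 of 11 tested called between letters. In libraries A to D it was 160, 138, 172 and 181 CPM with the TSP-4 plasmid. With the empty plasmid it was 190, 141, 172 and 181 CPM. Single markers differed, with Vwf lowest in A and Tek in D by letter mean. The part of any of these cell types in the letter values of Pdk4 and Plin2 was not tested. The mitochondrial enzymes varied less. Acsl5 was highest in B and lowest in A, with 101, 120, 114 and 104 CPM with the TSP-4 plasmid, against 98.5, 124, 110 and 103 CPM with the empty plasmid (letter fold 1.23, edgeR adjusted p = 0.00408). Acadl had 62.1, 56.6, 51.7 and 59.8 CPM with the TSP-4 plasmid, against 72.6, 53.9, 56.2 and 58.7 CPM with the empty plasmid, and Acadm 33.1, 31.1, 24.6 and 32.3 CPM with the TSP-4 plasmid, against 29.8, 27.5, 24.7 and 29.0 CPM with the empty plasmid. By letter mean both were highest in A and lowest in C, with letter folds of 1.24 (edgeR adjusted p = 0.0184) and 1.27 (edgeR adjusted p = 0.021).

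The letter calls of Acsl1, Pdk4, Plin2, Fabp4 and Ucp2 held in each of the 8 fits without 1 library. That of Pdk4 was lost with the letter as the single term (edgeR adjusted p = 0.101) and without both libraries of letter D (edgeR adjusted p = 0.0636), that of Plin2 with the letter as the single term (edgeR adjusted p = 0.0668), and that of Fabp4 without both libraries of letter C (edgeR adjusted p = 0.135). The call of Acsl5 was lost without empty plasmid library B (edgeR adjusted p = 0.0527). That of Acadl was lost without TSP-4 plasmid library C, empty plasmid library A or empty plasmid library C (edgeR adjusted p = 0.0646, 0.171 and 0.0564), and that of Acadm without TSP-4 plasmid library C, TSP-4 plasmid library D or empty plasmid library C (0.249, 0.0569 and 0.0532). Cpt1c and Decr1 lost their calls without any 1 library of letters B, C or D, and Echs1 without any 1 library other than that of the empty plasmid lettered A. In all, 6 members were called without TSP-4 plasmid library C, 7 without TSP-4 plasmid library D, 7 without empty plasmid library B and 6 without empty plasmid library C.

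A list of 74 other genes of the pathway held uptake, lipolysis, peroxisomal enzymes and partners of the receptors. Of these, 65 were tested, and edgeR called 0 between plasmids, higher or lower. Above 0 were 42 of 65 (64.6%), where 49.9% of all genes were, and this direction was not tested. By edgeR 1 of the 65 had an unadjusted p under 0.05, where 1.6% of all genes had. That gene was Slc22a5, the plasma membrane carnitine transporter, with 20.03, 18.7, 17.5 and 16.97 CPM with the TSP-4 plasmid, against 16.4, 16.3, 16.0 and 16.5 CPM with the empty plasmid. Its groups did not overlap, and the log2 fold change was 0.17 (95% interval 0.00 to 0.33, edgeR adjusted p = 0.999968). Acot7, a cytosolic thioesterase with the third smallest p, was at 199.9 ± 15.1 CPM with the TSP-4 plasmid, against 214 ± 10.9 CPM with the empty plasmid.

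Between letters 20 of the 65 were called (30.8%), beside the same 28.1% of all genes. The smallest p belonged to Pdk1, another kinase of pyruvate dehydrogenase, with 23.9, 30.01, 35.7 and 15.8 CPM with the TSP-4 plasmid, against 19.8, 30.2, 26.4 and 13.9 CPM with the empty plasmid (letter fold 2.06, edgeR adjusted p = 1.77e-05). Its lowest letter was D, where Pdk4 was highest. Lpl, the lipase that Angptl4 inhibits, had 29.0, 51.8, 99.7 and 42.5 CPM with the TSP-4 plasmid, against 26.9, 65.4, 88.0 and 37.8 CPM with the empty plasmid (letter fold 3.35, edgeR adjusted p = 4.37e-05). Nr1h3, the nuclear receptor LXR alpha, had a letter fold of 2.41 (edgeR adjusted p = 0.00117). Like Lpl it was by letter mean highest in C and lowest in A, as was the sum of the macrophage markers. The part of macrophage RNA in the values of Lpl and Nr1h3 was not tested. Mgll, a monoacylglycerol lipase, and Amacr, a racemase of branched acyl-CoA, were highest in D and lowest in B. Their letter folds were 1.36 and 1.79 (edgeR adjusted p = 0.000199 and 0.000439). The fibroblast marker sum was lowest in D, and the epicardial and mesothelial sum and the endothelial sum were lowest in B. The part of these cells in the values of Mgll and Amacr was not tested. G0s2, an inhibitor of adipose lipase, was highest in B and lowest in D (letter fold 2.51, edgeR adjusted p = 0.000873). The fatty acid translocase Cd36, named after its values were seen, had a letter fold of 3.54, C over A (edgeR adjusted p = 0.00857).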

How the data were processed

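The authors deposited read counts as whole numbers per gene, and their deposited FPKM equal count over gene length times 1 constant per library (11548 genes checked). Libraries were made with NEBNext Ultra, per the labels' protocols; CASAVA, TopHat2 2.0, Cufflinks 2.1.1 and HTSeq 0.6.1 are named without roles, per the submitters' processing notes, with mm10 and GRCm38.p6. For the strand setting, the annotation release and multi-mapping reads, nothing is given in the sources used here.

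Counts were tested with edgeR 4.0.16 in R 4.3.3 (quasi-likelihood, robust, TMM factors, filterByExpr with a minimum count of 10) in a model with the plasmid alone, and p-values were adjusted by Benjamini-Hochberg over all genes tested (threshold 0.05). A second edgeR model held plasmid and letter, and the letter terms were tested together (3 degrees of freedom). The tests were run on simulated counts before use. CPM use TMM factors. Fold intervals include the spread between libraries. Alternatives were DESeq2 1.42.0, limma 3.58.1 (voom, log2(FPKM + 1), log2(FPKM + 0.1)), RLE factors, no filter, the letter block, and fits without 1 library or 1 letter. Family shares on principal transcripts were added after the data were seen.

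After subtracting group means, libraries of the same letter correlated across genes with r of 0.508 to 0.651 (other pairs -0.57 to 0.323; genes are not independent replicates), all over 0.1, so the data pair the libraries by letter. No 2 libraries agreed within sampling noise, the mean chi-square per gene being 4.94 or more. Members and gene lists were chosen with earlier results of these data known. All 39 members may be named; of the other 74 pathway genes, the 6 with the smallest p among those called per test, or the 3 with the smallest p where none was called. One of these is not reported here. Sequences come from RefSeq (GRCm38.p6).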

Additional observations from a re-analysis of the deposited data

Results flagged for a closer look

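Of 80 groups of 4 libraries examined (the CPM of each member and the totals), 2 had a library standing apart by Dixon's test at the 95% level; chance gives about 5% of groups. Acads, the short-chain acyl-CoA dehydrogenase, had 40.1 CPM in empty plasmid library A against 33.3 to 34.2 CPM in the other empty plasmid libraries, with a gap of 0.865 of the group's range. The total count of TSP-4 plasmid library A was 22530947 against 17123735 to 17681837 in the other TSP-4 plasmid libraries, a gap of 0.897 of the range. That library also had the lowest CPM of Angptl4, Plin2, Ucp2, Fabp4 and Acsl1 in its group; any link was not tested.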

How the results depend on the processing

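No member was called between plasmids in any of 664 fits of a member under another setting, and the smallest adjusted p was 0.279, from a fit with the replicate block, and 0.915 without it. The block changed no call of a member. The genes called between plasmids numbered 1 in the main test, 2 with the replicate block, and with the block and both libraries of a letter left out 5 (A), 4 (B) and 2 (C); the cause was not tested. The members' median log2 fold change ranged over 0.0039 to 0.067 without 1 library, and 13 of 35 members changed sign without at least 1. The members called between letters numbered 7 with DESeq2, 6 with the letter as the single term, 6 without letter C, and 6 to 11 without 1 library. DESeq2 called 2716 genes between letters. Of the other pathway genes, 12 were called between letters with DESeq2, 12 with log2(FPKM + 1), 12 with log2(FPKM + 0.1), and 11 to 22 without 1 library. The letter calls of Acsl1 and Ucp2 held in all 19 alternatives. DESeq2 gave no adjusted p for Acot1 between letters. Low counts limit Ppara, Ppargc1a, Ppargc1b and Acot1; for Cpt1b, depth and the overlap with Gm44502 cannot be told apart. The spread between letters limits Angptl4 and Ucp2 without the block.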
